A study of Mus musculus with 9 samples.

Results

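Cancer-associated fibroblasts (CAF), the fibroblasts of the tumour stroma, were compared with normal fibroblasts (NF) across all expressed genes. The comparison rests on 6 of the 9 RNA sequencing libraries of the study, 3 of CAF and 3 of NF, chosen by their source labels. All 6 came from wild-type cells of strain C57BL/6 grown in culture with 10% serum, and no treatment is labelled. The other 3 libraries, of CAF with the genotype beta-catenin -/-, entered the fit to help estimate the spread between replicates. They therefore also took part in the scaling and in the filter on low counts. That filter passed 14314 genes with them and 13938 with only the 6 libraries. The sources used here do not name the tumour, the tissue of origin, the sex, the age, the passage or the number of animals. Whether the replicates are separate cultures or animals is not stated in the labels, and the p-values therefore describe only how much these samples vary, which may be technical variation.

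Fibroblasts build and repair connective tissue, and they read their surroundings through growth factor, hormone and cytokine receptors that act on second messengers and transcription factors. In tumours they are known for a contractile, matrix-depositing state. Their enzymes and membrane transporters set which nutrients, ions and drugs pass in and out of the cell, and these are the functions described here.

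The 6 libraries held 15615642 to 21893574 counts. Levels are given in CPM, counts relative to the TMM-scaled library size, and on that scale 3 counts correspond to 0.128 to 0.190 CPM in a single library. NF replicate 1 stood apart from the other NF libraries. Its log2 CPM across genes correlated at 0.951 and 0.935 with NF replicates 2 and 3, but at 0.984 to 0.989 with the beta-catenin -/- libraries, as a description over genes, which are not independent. NF replicates 2 and 3 correlated at 0.922 to 0.965 with those libraries too, and CAF at 0.778 to 0.795. The beta-catenin -/- libraries correlated with each other at 0.978 to 0.991. NF replicate 1 fell within that range, and NF replicates 2 and 3 fell below it. All NF libraries were thus closer to the beta-catenin -/- libraries than CAF was, but only NF replicate 1 was as close as those libraries were to each other. Whether the labels of these libraries hold was not tested. Each result below is therefore also read without NF replicate 1. All libraries of a group differed by more than sampling noise.

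The fibroblast label was checked against 16 markers. Vim, the mesenchymal intermediate filament, lay at 4738 to 5796 CPM in CAF and 3817 to 5175 in NF. The mesenchymal regulators Twist1 (52.6 to 64.3 CPM in CAF, 45.1 to 59.9 in NF) and Prrx1 (561 to 780 and 282 to 698) were present in every library. Of the 16, 9 were higher in CAF, or 56.2% against 20.0% of all tested genes, and the others did not pass the test. Without NF replicate 1, 11 were higher, with 8 calls kept, that of S100a4 lost and those of Fn1, Prrx1 and Ddr2 gained. The call of S100a4 also ended when any CAF library or NF replicate 2 was left out. It ended too with only the 6 libraries, total counts or another filter. That of Fap ended without CAF replicate 1 or NF replicate 2 and with only the 6 libraries. Thy1 was nearly absent from NF, at 0.0426 to 0.633 CPM against 1755 to 2187 in CAF, and Postn lay at 1.85 to 44.8 against 4008 to 4726. Without NF replicate 1 the log2 fold change of Thy1 went from 12.40 to 13.01, without NF replicate 2 it was 11.75, and that of Postn went from 7.86 to 9.68 without NF replicate 2. Col1a1 lay at 85.6 to 218 CPM in NF against 14547 to 25744 in CAF, and Col1a2 at 58.8 to 353 against 9253 to 13279. Col3a1 lay at 203 to 260 against 2191 to 3906, and Pdgfrb at 24.7 to 39.1 against 552 to 824. Pdgfra (193 to 349 CPM) and Ddr2 (276 to 1069) were present in every NF library. The NF libraries thus carried the label's broad mesenchymal markers, but far less than CAF of the listed collagens, Pdgfrb, Thy1 and Postn.

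Markers of other cells were read in the same libraries. Counts of called markers stand beside 20.0% of all tested genes higher in CAF and 19.9% lower. Without NF replicate 1 these shares were 23.8% and 21.3%. The summed level of 12 keratinocyte and epithelial markers was 31.1 to 39.2 CPM in CAF and 1.08 to 4.39 in NF, with Krt19 at 31.1, 33.1 and 14.4 in CAF and at most 0.0426 in NF, Krt8 at 0 in 2 CAF libraries and Epcam at no more than 0.430 CPM in any library. Krt14 and Krt5 reached 5.59 and 7.26 CPM in CAF replicate 3 and stayed under 1 CPM in the other 5. The 11 leukocyte markers summed to higher levels in NF, 36.4 to 55.9 CPM against 7.02 to 11.3, with the lysosomal protein gene Cd68 at 28.4, 38 and 19.8 in NF. Of the 4 leukocyte markers tested 2 were lower in CAF, and of all 11 without the filter on low counts 5 were lower, while Ptprc lay at 0.0633 to 1.24 CPM in NF and Tyrobp at 0 to 0.810. Endothelial markers summed to 12.3 to 20.6 CPM in CAF and 5.25 to 6.08 in NF, with Tie1 at 0 in CAF. Of 5 tested 3 were higher, or 2 without NF replicate 1. The call lost there also ended without CAF replicate 1, CAF replicate 2 or NF replicate 2, and with only the 6 libraries. The endothelial list held 1 lower member, a call that ended when any of the CAF libraries or NF replicate 1 was left out or only the 6 libraries were fitted. Pericyte and smooth muscle markers summed to 312 to 432 CPM in CAF and 160 to 812 in NF. Of the 7 that passed the filter 5 were higher and 2 lower in CAF, or 1 lower without CAF replicate 2, CAF replicate 3 or NF replicate 2. Most of the NF sum was Cspg4, at 151 to 803 CPM against 84.7 to 100 in CAF, and Rgs5 was the other lower member. Lmod1 lay at 108 to 138 CPM in CAF and 0.123 to 0.19 in NF. Mcam lay at 83.3 to 103 and 4.25 to 6.65, and Myh11 at 30.8 to 92 and 0.0426 to 0.317. Skeletal muscle markers were represented by Acta1 in CAF and Chrna1 in NF and summed to 93.2 to 251 and 360 to 517 CPM, with Myf5 at 0 in all 6 libraries. Melanocyte markers summed to 10.6 to 24.3 CPM in CAF and 10.8 to 17.9 in NF, with Gpr143 and Oca2 at 0 throughout. Most of the sums came from Mitf, Ednrb and Sox10. Mitf lay at 4.25 to 8.74 CPM in CAF and 6.95 to 15.2 in NF. Ednrb lay at 3.25 to 13.9 and 0 to 1.9, and Sox10 at 0.143 to 5.07 and 0.127 to 2.22. Of 4 tested 0 were called, but other fits called up to 1 higher and 1 lower. Glial markers summed to 18.2 to 28.9 CPM in CAF and 8.12 to 54.4 in NF. Mbp lay at 5.7 to 14 CPM in CAF and 0.123 to 0.57 in NF, and S100b at 1.15 to 7.45 and 2.58 to 38.1. Of 6 tested 2 were higher, or 1 when CAF replicate 1 or 2 or any NF library was left out. In the main fit 0 were lower, and up to 2 in other fits. Adipocyte markers summed to 3.83 to 5.78 CPM in CAF and 0.950 to 2.13 in NF. Bone and cartilage markers summed to 44.4 to 62.5 and 189 to 257, almost all of it Sox9, at 43.8 to 61.6 and 188 to 256. The other members of that list lay at 0.426 CPM or lower in every library. The part of other cells in the gene differences was not tested, and in bulk RNA fewer cells of a type and less RNA per cell cannot be told apart.

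Of 14314 genes that passed the filter on low counts, 5713, or 39.9%, differed between CAF and NF at an edgeR quasi-likelihood adjusted p under 0.05. Higher in CAF were 2866 genes, or 20.0%, and lower were 2847, or 19.9%. The median log2 fold change over all of them was -0.04 and the median absolute value 0.55. With total counts in place of TMM scaling the split was 2440 higher and 3701 lower, and the median then lay at -0.20, lower by 0.16 than with TMM. In 48.2% of genes the CAF and NF libraries did not overlap, with CAF above in 24.6% and below in 23.6%. No count at all was seen in NF for 145 genes called higher, and none in CAF for 85 called lower.

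Leaving out NF replicate 1 kept 5277 of the 5713 calls, or 92.4%, in the same direction. Calls of higher genes held in 2734 cases and calls of lower genes in 2543. The other 436 lost their call and 0 turned direction, while 469 of the 5713 changed their fold by more than 1.5 times. Without that library 675 further genes were called higher and 509 lower, so that 45.1% of genes differed, 23.8% of all tested genes being higher and 21.3% lower. In the plot of both fits, most genes lie close to the diagonal.

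**Figure D1:**
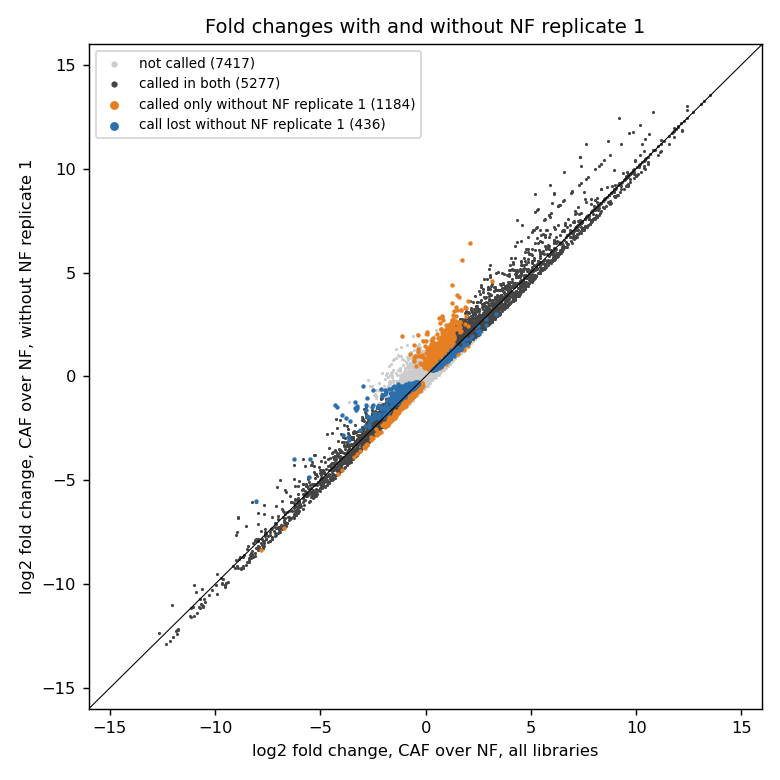
Each point is a tested gene, with its log2 fold change of CAF over NF from all libraries on the horizontal axis and without NF replicate 1 on the vertical axis. Colours mark the 5277 genes called in the same direction in both fits, the 436 whose call was lost and the 1184 called only without that library.

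Function by function, the share of tested genes called was set beside the 39.9% over all genes. It was 60.6% for receptors, 53% for signalling, 51.2% for transport and 45.4% for metabolism. Transcription and chromatin factors, at 39.1%, were close to the background, but their families were not alike. Numbered zinc finger genes, 339 of the 755 tested, had 26.8% called, chromatin regulators 32.2% and ETS and RUNX factors 35%. Higher shares were those of SOX and forkhead factors (70.6%) and homeobox factors outside the HOX and Iroquois clusters (67.2%). Nuclear factor I, AP-2, C/EBP and MAF-type factors had 57.5%, and KLF, SP and GATA factors 50%. Basic helix-loop-helix factors and STAT, IRF and NF-kB factors had 55.6% each. Receptor genes passed the filter in 284 of 594 cases, with 100 higher and 72 lower in CAF, and signalling genes in 317 of 405, with 100 higher and 68 lower. Metabolic genes had 202 higher and 161 lower of 800 tested. Transport genes had 115 higher and 139 lower of 496. Transcription and chromatin factors had 152 higher and 143 lower of 755, shares of 20.1% and 18.9%. A gene could pass the filter through its level in any of the 3 groups, the beta-catenin -/- libraries included. These are thus counts of tested genes only, with no test of the function.

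**Figure D2:**
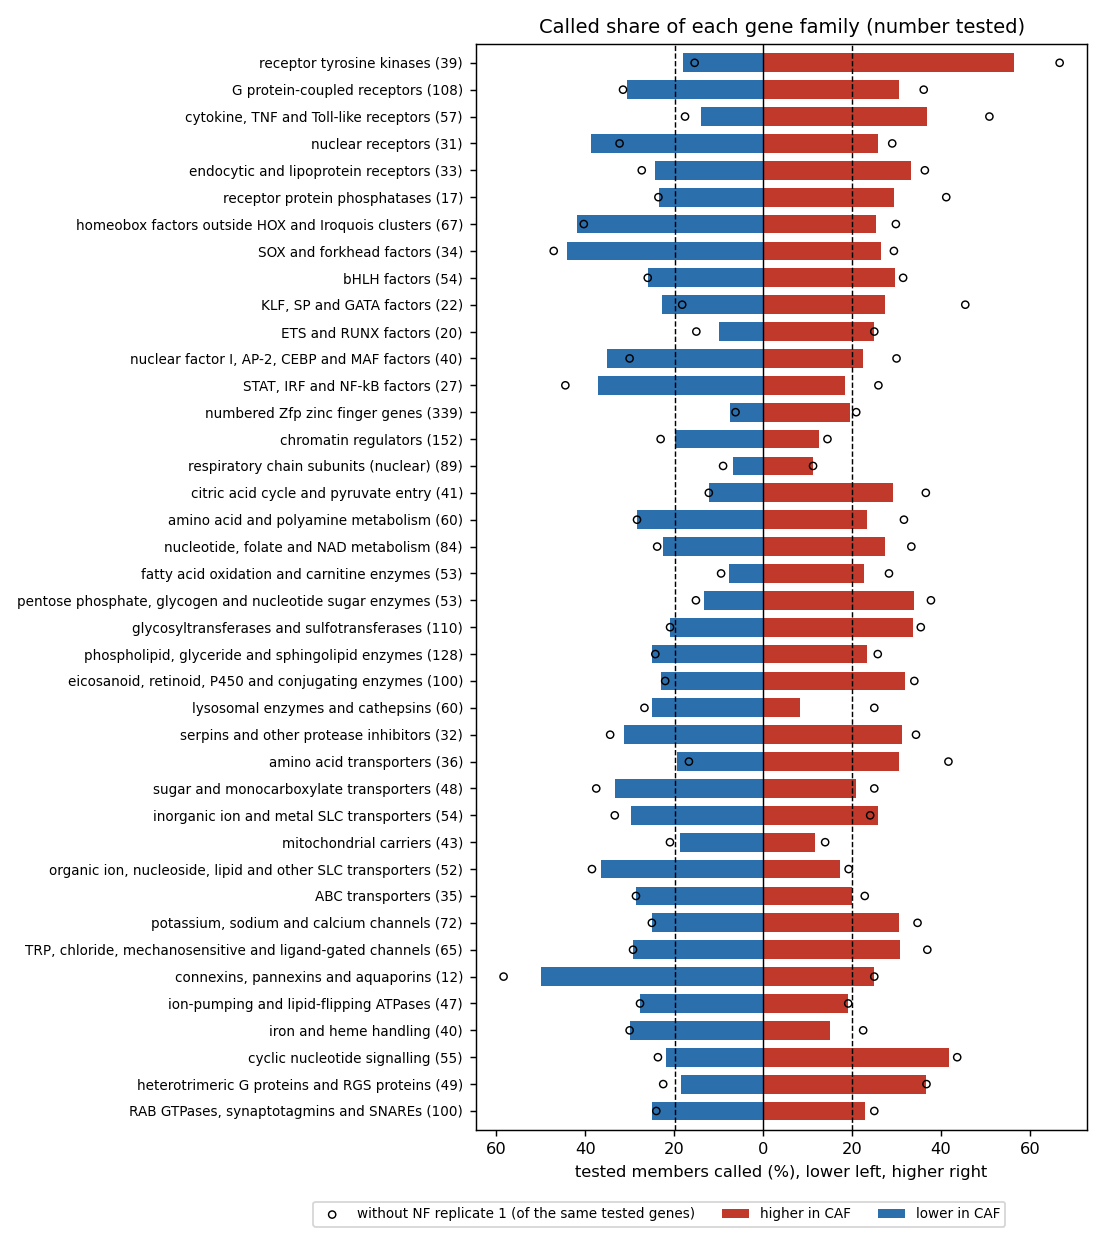
Bars give the percentage of tested members of each of 40 gene families that were called higher (right) or lower (left) in CAF, with the open markers giving the same without NF replicate 1. Dashed lines mark 20.0% and 19.9%, the shares over all 14314 tested genes.

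Receptor tyrosine kinases carry growth factor and guidance signals into the cell. Of 55 in the genome list, 39 passed the filter, 22 were higher and 7 lower in CAF, with a median log2 fold change of 1.36. Epha4, an ephrin receptor for cell-contact guidance, lay at 45.3, 38.4 and 43.3 CPM in the CAF libraries, in replicate order, against 0.0633, 0.0426 and 0 in NF. It was thus close to the detection floor in every NF library and even across CAF, with a ratio of 1174 (95% counting interval 325 to 9697) and an adjusted p of 1.71e-06. Flt4, a receptor for lymphatic growth factors, rose in the same way, at 35.9 to 69.2 CPM in CAF against at most 0.123 in NF. Mertk, which recognises dying cells for uptake, went the other way, at 3.31, 2.95 and 4.44 CPM in CAF and 52.7, 59.9 and 104 in NF. Its CAF libraries lay well below every NF library, and the log2 fold change was -4.34 ± 0.30 (SE, adjusted p = 7.56e-06). Epha2 (log2 fold change -3.27 ± 0.36), the hepatocyte growth factor receptor Met (-1.80 ± 0.18) and Ephb6 (-1.37 ± 0.25) also fell. Axl, the most abundant of the family per kilobase, lay at 1493 to 1722 CPM in CAF and 1042 to 1766 in NF, and passed the test only when NF replicate 1 was left out (log2 fold change 0.51, adjusted p = 0.0373, against 0.27 and 0.354 with it). Without NF replicate 1 the family had 26 higher and 6 lower members.

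G protein-coupled receptors sense lipids, peptides, amines and proteases. They split evenly, 33 higher and 33 lower of the 108 that passed out of 337, with a median of 0.15. S1pr3, a receptor of the blood lipid sphingosine 1-phosphate, lay at 352, 378 and 403 CPM in CAF against 0.253, 0.981 and 0.923 in NF. No NF library came near the CAF range, and the log2 fold change was 8.98 ± 0.48 (adjusted p = 1.99e-06). The vasopressin receptor Avpr1a rose as well, from at most 0.123 CPM to 45.3 to 81.8 (log2 fold change 9.63 ± 0.50). Adcyap1r1, the receptor of the neuropeptide PACAP, had no count in NF and 120, 58.6 and 58.1 CPM in CAF, which is at least 1431-fold higher taking 3 counts over the NF group as the floor, or 826-fold without NF replicate 2. F2r, the thrombin receptor, was present on both sides but higher in CAF, at 870, 798 and 671 CPM against 144, 138 and 152, with a log2 fold change of 2.43 ± 0.18 (adjusted p = 1.20e-05).

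In the other direction, the muscarinic acetylcholine receptor Chrm3 lay at 0.0560, 0.155 and 0.0955 CPM in CAF and 57.5, 47.0 and 44.7 in NF. It was even within NF and at the floor in CAF, with a log2 fold change of -8.82 ± 0.31 (adjusted p = 3.85e-07). Sucnr1, the succinate receptor, and the chemokine receptors Cxcr3 and Cxcr4 had no count in CAF. Their NF levels were uneven, 59.5, 21.6 and 5.41 CPM for Sucnr1, 1.14, 21.0 and 71.2 for Cxcr3, and 10.1, 55.2 and 7.81 for Cxcr4. At the least, these were 535-fold, 582-fold and 552-fold lower in CAF, or 290-fold for Sucnr1 without NF replicate 1, 252-fold for Cxcr3 without NF replicate 3 and 173-fold for Cxcr4 without NF replicate 2. Leaving out CAF replicate 3 brought these bounds to 342-fold, 372-fold and 353-fold through the loss of depth.

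Receptors of cytokines, of the tumour necrosis factor family and of microbial patterns had 21 higher and 8 lower of 57 tested (95 in the list, median 0.69), or 29 and 10 without NF replicate 1. Without the filter 13 were lower. Il1rl1, the receptor of the alarm cytokine interleukin 33, lay at 1194, 812 and 506 CPM in CAF and 25.5, 15.8 and 26.7 in NF. Osmr, the oncostatin M receptor, lay at 265, 264 and 214 CPM against 3.93, 2.86 and 8.74. For both, the lowest CAF library was many times the highest NF library, with log2 fold changes of 5.21 ± 0.42 and 5.59 ± 0.45, the latter 6.20 without NF replicate 3. Tnfrsf9, a costimulatory receptor known from T cells, fell to 0.0477 to 0.336 CPM in CAF from 8.93, 34.7 and 38.1 in NF (log2 fold change -6.98 ± 0.99, adjusted p = 4.89e-04). The growth hormone receptor Ghr (-1.90 ± 0.26), Tnfrsf1b (-1.90 ± 0.26) and the interleukin 6 receptor subunit Il6ra (-1.73 ± 0.43) also fell.

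Nuclear receptors, which act as hormone- and lipid-sensing transcription factors, had 8 higher and 12 lower of 31 tested (45 in the list, median -0.39). The 12 became 7 without CAF replicate 1, 6 without CAF replicate 3 and 7 with only the 6 libraries in the fit. Vdr, the vitamin D receptor, lay at 71.9, 116 and 130 CPM in CAF and 4.75, 10.9 and 3.32 in NF, with a log2 fold change of 4.05 ± 0.45 (adjusted p = 1.09e-04), or 4.71 without NF replicate 2. Rorb, an orphan receptor, fell by 5.73 ± 0.59 on the log2 scale (5.13 without NF replicate 3), while its relative Rora rose, at 45.0 to 54.1 CPM against 9.78 to 27.5 (1.57 ± 0.33). Esr1, an oestrogen receptor, lay at 2.01 to 2.07 CPM in CAF and 18.7, 4.18 and 3.08 in NF, with NF replicate 1 the highest. Its log2 fold change was -2.08, and -0.83 without that library, and leaving out CAF replicate 1, 2 or 3 ended the call (adjusted p = 0.0674, 0.0726 and 0.0653), as did a fit of only the 6 libraries (0.0509).

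Endocytic and lipoprotein receptors bring cargo into the cell, and 11 were higher and 8 lower of 33 tested out of 42 (median -0.05). Scara5, a scavenger receptor that can take up ferritin, lay at 0.392, 0.414 and 2.01 CPM in CAF and 168, 87.2 and 316 in NF. Every NF library exceeded every CAF library, with a log2 fold change of -7.62 ± 0.73 (adjusted p = 4.54e-05), or -8.86 without CAF replicate 3. The scavenger receptor Stab1 (-7.14 ± 0.87) and the very low density lipoprotein receptor Vldlr (-2.72 ± 0.23) fell too, while the collectin Colec12 rose (3.37 ± 0.30). Receptor-type protein phosphatases, which remove phosphate from tyrosine, had 5 higher and 4 lower of 17 tested out of 21 (median 0.19), with 2 lower when only the 6 libraries were fitted. Ptprz1 lay at 60.0, 40.1 and 45.4 CPM in CAF and 0.127, 0.128 and 0 in NF, a log2 fold change of 8.98 ± 0.51 (adjusted p = 2.38e-06). Ptprj fell, from 51.5 to 56.8 CPM in NF to 2.82 to 9.30 in CAF (-3.02 ± 0.36).

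**Figure D3:**
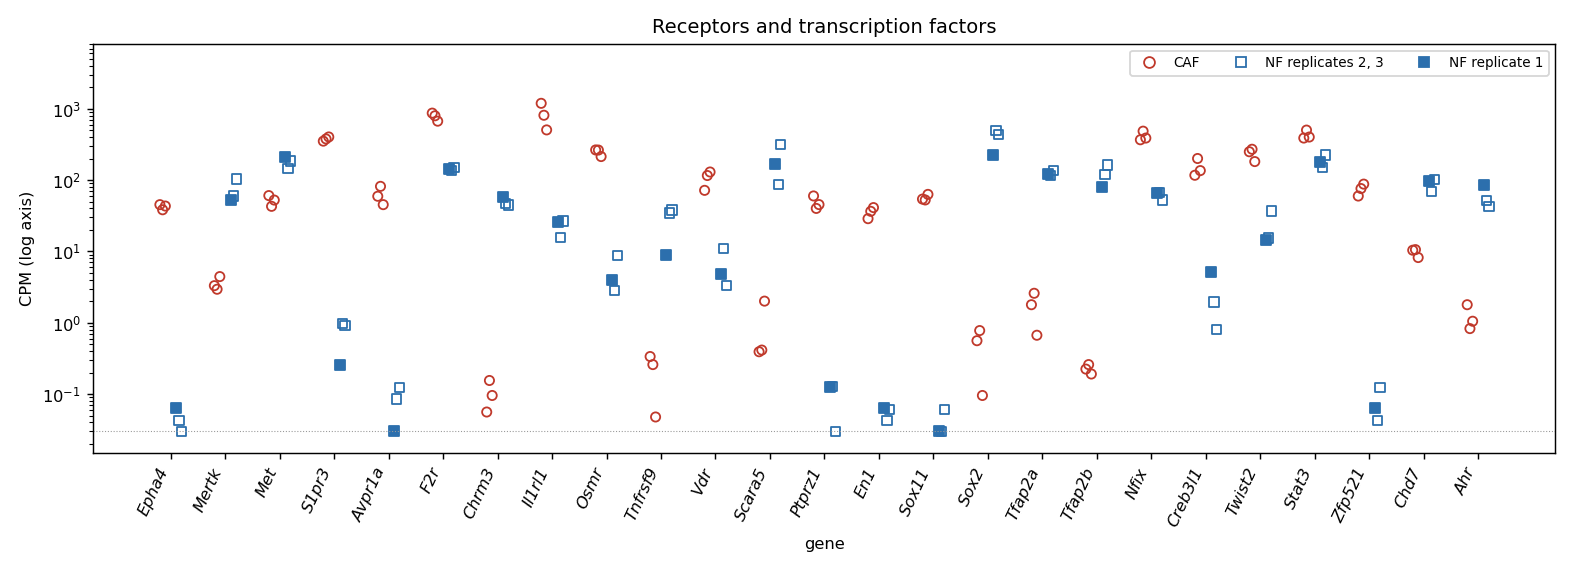
CPM of receptors and transcription factors named in the text in each library, on a log axis, with values under 0.03 CPM drawn at 0.03. Circles are CAF, squares NF and the filled square NF replicate 1; Sox2 lies at 223 to 496 CPM in NF and 0.0955 to 0.777 in CAF.

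Transcription factors that assign cell identity differed in both directions. Homeobox factors outside the HOX and Iroquois clusters had 17 higher and 28 lower of 67 tested out of 172, with a median of -0.34. En1, a homeobox gene known in mouse skin for a lineage of dorsal dermal fibroblasts, lay at 28.8, 36.5 and 41.2 CPM in CAF and 0.0633, 0.0426 and 0.0615 in NF. Each NF library held a single count, and the ratio was 662 (95% counting interval 226 to 3215, adjusted p = 6.10e-07). Meis1, a partner of HOX proteins, rose by a log2 fold change of 2.75 ± 0.26. Nkx2-2, a homeobox factor of the ventral neural tube and pancreas, went the other way, with no count in CAF and 6.08, 8.14 and 6.09 CPM in NF. It was even within NF and at least 135-fold lower in CAF, or 86.2-fold without CAF replicate 3.

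SOX and forkhead factors had 9 higher and 15 lower of 34 tested out of 63 (median -0.52). The 9 became 5 without NF replicate 3 and 4 with only the 6 libraries. Sox2, a factor of stem cells and neural progenitors, lay at 0.560, 0.777 and 0.0955 CPM in CAF against 223, 496 and 434 in NF. It is a gene of chromosome 3, from base 34650405 to 34652461 of GRCm38. All NF libraries stood far above all CAF libraries, with a log2 fold change of -9.66 ± 0.57 (adjusted p = 3.07e-06), and -9.93 without NF replicate 1. Sox11, a factor of embryonic mesenchyme and neurons, had the opposite pattern, at 54.2, 52.7 and 63.1 CPM in CAF and 0, 0 and 0.0615 in NF (adjusted p = 9.69e-07). Sox5 (-5.33 ± 0.45) and Foxl1 (-5.28 ± 0.54) fell as well, while Sox12 (1.65 ± 0.33) and Foxn3 (1.37 ± 0.22) rose.

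Nuclear factor I, AP-2, C/EBP and MAF-type factors had 9 higher and 14 lower of 40 tested out of 51 (median -0.13), the 14 becoming 8 without CAF replicate 2 and 9 with only the 6 libraries. Both AP-2 factors named, which act in the neural crest and face, were low in CAF. Tfap2b lay at 0.224, 0.259 and 0.191 CPM in CAF and 80.2, 119 and 163 in NF, and Tfap2a at 1.79, 2.59 and 0.668 against 121, 117 and 135. The groups were separated by a wide gap for both, with log2 fold changes of -9.03 ± 0.37 and -6.21 ± 0.39. Nfe2l2, which encodes the oxidative stress factor NRF2, fell by 1.67 ± 0.16 on the log2 scale, from 367 to 493 CPM to 119 to 144. Nfix rose, at 368 to 486 CPM against 52.5 to 67.6 (2.74 ± 0.17), and so did Creb3l1, a membrane-bound factor for secretory and collagen genes. Creb3l1 lay at 117, 201 and 136 CPM in CAF against 5.13, 1.96 and 0.800 in NF, with a log2 fold change of 5.86 ± 0.59, or 6.72 without NF replicate 1, its highest NF library.

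Basic helix-loop-helix factors had 16 higher and 14 lower of 54 tested out of 100 (median 0.03), with 9 lower without CAF replicate 2. Twist2, a mesenchymal factor of the dermis, rose to 182 to 271 CPM from 14.4 to 36.9 (3.40 ± 0.40). Arntl2, a clock protein, fell to 7.51 to 7.64 CPM from 43.5 to 59.4 (-2.81 ± 0.17). KLF, SP and GATA factors had 6 higher and 5 lower of 22 tested out of 33 (median 0.33). Without NF replicate 1 they had 10 higher, and without CAF replicate 2 they had 3 lower. Klf10, a gene induced by TGF-beta, fell by 2.15 ± 0.23 on the log2 scale and Klf13 rose by 1.47 ± 0.22. ETS and RUNX factors had 5 higher and 2 lower of 20 tested out of 30 (median 0.10), with 3 higher without CAF replicate 3, without NF replicate 3 or with only the 6 libraries. STAT, IRF and NF-kB factors had 5 higher and 10 lower of 27 tested out of 31 (median -0.30). Stat3, the factor below interleukin 6 type receptors, rose to 389 to 503 CPM from 150 to 225 (1.23 ± 0.19), while the NF-kB subunit Relb (-1.02 ± 0.20), the inhibitor Nfkbie (-2.13 ± 0.43) and the osmotic stress factor Nfat5 (-0.92 ± 0.15) fell.

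Numbered zinc finger genes, most of them DNA-binding repressors, had 66 higher and 25 lower of 339 tested out of 395 (median 0.03). The 25 became 44 with total counts as the scaling, 14 without CAF replicate 2 and 13 with only the 6 libraries. Zfp521, known for holding mesenchymal progenitors back from fat and bone fates, lay at 59.8, 76.2 and 87.9 CPM in CAF and 0.0633, 0.0426 and 0.123 in NF. It was at the floor in all NF libraries, with a log2 fold change of 9.88 ± 0.40 (adjusted p = 5.84e-07). Chromatin regulators had 19 higher and 30 lower of 152 tested out of 158 (median -0.11), with 46 lower when total counts were the scaling. The remodeller Chd3 rose (1.92 ± 0.17), while its relative Chd7, needed in the neural crest, fell from 98.7, 69.2 and 101 CPM in NF to 10.4, 10.6 and 8.21 in CAF (-3.20 ± 0.19). The demethylase Kdm7a (-3.30 ± 0.22), the brown fat factor Prdm16 (-2.89 ± 0.22) and the architectural proteins Hmga1 (-2.76 ± 0.23) and Hmga2 (-1.49 ± 0.22) fell too. The Y-linked demethylase Kdm5d had 4.20, 25.6 and 28.6 CPM in CAF, replicate 1 being the lowest, against at most 0.0426 in NF. The labels give no sex for the cells, and whether CAF and NF differ in sex was not tested.

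Among enzymes, those of xenobiotic and lipid mediator metabolism gave a pair that moved apart. AHR is a ligand-activated factor that binds DNA at sites with the core GCGTG and is known to induce the cytochrome P450 genes Cyp1a1 and Cyp1b1. Ahr lay at 1.79, 0.828 and 1.05 CPM in CAF and 86.6, 51.7 and 43.0 in NF. All NF libraries were far above CAF, with a log2 fold change of -5.63 ± 0.37 (adjusted p = 5.32e-06). Cyp1a1 had no count in CAF and 4.69, 36.9 and 4.12 CPM in NF, at least 351-fold lower in CAF, or 225-fold without CAF replicate 3 and 85.2-fold without NF replicate 2. Cyp1b1 rose instead, at 161, 166 and 118 CPM in CAF against 3.48, 2.99 and 1.05 in NF, without overlap and with a log2 fold change of 5.88 ± 0.46 (adjusted p = 1.51e-05). Nqo1, a quinone reductase of the AHR and NRF2 programmes, lay at 16.6, 14.7 and 10.3 CPM in CAF and 290, 189 and 39.4 in NF (-3.64 ± 0.60, or -3.04 without NF replicate 1).

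Both promoters were searched for the AHR core to set them beside these opposite changes. They are shown 5′ to 3′ from RefSeq on GRCm38.p6, from 250 bases before to 50 bases after the transcription start, with GCGTG on either strand in capitals. Cyp1a1 is on the plus strand at chr9:57697363-57697662, and Cyp1b1 on the minus strand at chr17:79715012-79715311.
Cyp1a1: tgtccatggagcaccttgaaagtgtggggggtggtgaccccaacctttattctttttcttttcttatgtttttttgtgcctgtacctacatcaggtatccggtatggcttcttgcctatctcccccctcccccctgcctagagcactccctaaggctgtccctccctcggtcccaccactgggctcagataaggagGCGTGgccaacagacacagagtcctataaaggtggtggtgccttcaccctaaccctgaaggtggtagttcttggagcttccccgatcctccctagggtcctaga
Cyp1b1: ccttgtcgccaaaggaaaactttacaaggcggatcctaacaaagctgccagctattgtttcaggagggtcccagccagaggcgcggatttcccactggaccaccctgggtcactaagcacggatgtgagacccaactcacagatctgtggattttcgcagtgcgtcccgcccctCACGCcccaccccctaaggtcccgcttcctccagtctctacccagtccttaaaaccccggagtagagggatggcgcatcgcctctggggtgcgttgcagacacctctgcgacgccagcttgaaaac
Each promoter held 1 match, beginning 54 bases before the start on the plus strand of the gene for Cyp1a1 and 76 bases before it on the opposite strand for Cyp1b1. The core occurs in 32.4% of 32851 mouse promoter windows of this length, so a match is common and says nothing of binding. The core was thus present in this window of both genes.

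The wider group of eicosanoid, retinoid, P450 and conjugating enzymes had 32 higher and 23 lower of 100 tested out of 284 (median 0.05). Crabp1, a retinoic acid binding protein and the most abundant member per kilobase, lay at 1044 to 1511 CPM in CAF against 322, 55.8 and 365 in NF (2.43 ± 0.57). Mgst2, a glutathione transferase of leukotriene synthesis, fell by 3.92 ± 0.37 on the log2 scale. Serpins and other protease inhibitors had 10 higher and 10 lower of 32 tested out of 114 (median -0.01). Serpina3n, an acute-phase inhibitor, lay at 1.40 to 1.85 CPM in CAF and 45.2, 304 and 64.7 in NF (-6.41 ± 0.76, or -5.08 without NF replicate 2). Serpina3 genes are a cluster of near-identical copies, so reads may have been split between them.

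Enzymes of amino acid and polyamine metabolism had 14 higher and 17 lower of 60 tested out of 85 (median 0.24). The polyamine enzymes Sms (-2.95 ± 0.35), Smox (-2.55 ± 0.49) and Odc1 (-2.57 ± 0.65) fell, the call of Odc1 being lost without CAF replicate 2 (adjusted p = 0.0522). Odc1, which starts polyamine synthesis, lay at 77.6, 65.1 and 68.9 CPM in CAF and 95.5, 530 and 630 in NF, with NF replicate 1 close to CAF. Abat, which breaks down the neurotransmitter GABA, rose to 12.9, 16.4 and 20.4 CPM from 0.0633, 0.171 and 0.123 (6.98 ± 0.57). Ass1, which makes argininosuccinate in arginine synthesis, lay at 46.1, 49.7 and 57.0 CPM in CAF and 3.36, 1.15 and 0.492 in NF, without overlap (4.95 ± 0.53, or 5.89 without NF replicate 1). Fah, of tyrosine breakdown, rose by 3.14 ± 0.27.

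Nucleotide, folate and NAD enzymes had 23 higher and 19 lower of 84 tested out of 90 (median -0.01), with 12 lower without CAF replicate 3. Upp1, which splits uridine for reuse of its ribose, lay at 3.25, 1.76 and 1.24 CPM in CAF and 114, 227 and 308 in NF. The gap between groups exceeded the spread within either, with a log2 fold change of -6.71 ± 0.49 (adjusted p = 1.07e-05). The nucleoside transporter Slc29a1 fell beside it, at 14.8, 21.8 and 22.0 CPM against 293, 225 and 227 (-3.67 ± 0.21, adjusted p = 2.38e-06). Adssl1, of the purine nucleotide cycle, fell by 4.06 ± 0.36 on the log2 scale. Ampd3, which deaminates AMP, lay at 9.02, 7.40 and 7.93 CPM in CAF and 422, 86.4 and 21.3 in NF, where replicate 1 was far above the others. Its log2 fold change was -4.44 ± 0.91, and -2.73 without that library. Nt5e, the ectoenzyme CD73 that releases adenosine outside the cell, rose to 39.4 to 48.9 CPM from 6.95 to 13.0 (2.06 ± 0.35).

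Mitochondrial energy genes were read as separate lists. Nuclear-encoded respiratory chain subunits and assembly factors had 10 higher and 6 lower of 89 tested out of 93 (median 0.13), shares of 11.2% and 6.74% against 20.0% and 19.9% over all genes. The 10 became 6 without CAF replicate 2 and 5 with only the 6 libraries or with total counts, and the 6 became 3 without CAF replicate 1. Ndufa4, a subunit of cytochrome oxidase, lay at 88.1, 81.4 and 81.4 CPM in CAF and 14.1, 37.5 and 28.6 in NF (1.64 ± 0.31). Citric acid cycle and pyruvate entry genes had 12 higher and 5 lower of 41 tested out of 43 (median 0.22), with 3 lower without CAF replicate 2. Idh1, the cytosolic isocitrate dehydrogenase that makes NADPH, lay at 289, 223 and 364 CPM in CAF and 48.1, 33.3 and 79.2 in NF, a log2 fold change of 2.45 ± 0.32. The pyruvate carboxylase gene Pcx rose too (1.94 ± 0.31). The pyruvate dehydrogenase phosphatase Pdp1 (-2.40 ± 0.30) and the complex subunits Pdhb (-0.90 ± 0.16) and Pdhx (-0.57 ± 0.12) fell.

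Fatty acid oxidation and carnitine enzymes had 12 higher and 4 lower of 53 tested out of 57 (median 0.22), with 8 lower when total counts were the scaling. The 3 named enzymes that make or use ketone bodies and acetoacetyl-CoA rose, Bdh1 (2.97 ± 0.20), Acat2 (2.48 ± 0.39) and Oxct1 (1.51 ± 0.22). Bdh1 lay at 34.0, 44.1 and 36.8 CPM in CAF and 5.07, 5.50 and 4.06 in NF, even within each group. Pentose phosphate, glycogen and nucleotide sugar enzymes had 18 higher and 7 lower of 53 tested out of 61 (median 0.28). Gfpt2, which opens the hexosamine pathway for glycan synthesis, lay at 48.1, 49.8 and 30.8 CPM in CAF and 0.253, 0.256 and 0.615 in NF (6.85 ± 0.39). The glycogen branching enzyme Gbe1 fell (-2.53 ± 0.22).

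Glycosyltransferases and sulfotransferases had 37 higher and 23 lower of 110 tested out of 155 (median 0.21). Galnt17, of the family that starts mucin-type glycans, lay at 365, 442 and 439 CPM in CAF and 0.317, 0.896 and 0.123 in NF. All NF libraries were under 1 CPM, and the log2 fold change was 9.72 ± 0.50 (adjusted p = 1.60e-06), or 10.85 without NF replicate 2. Hs6st2, which sulfates heparan chains, rose to 260 to 397 CPM from 4.18, 0.554 and 2.52 (7.09 ± 0.68, or 7.80 without NF replicate 1). Among the members with the largest lower folds were Mgat4a and Gcnt1, which branch glycans, and a sialyltransferase that caps them, with Mgat4a at 3.08, 2.23 and 3.39 CPM in CAF and 78.7, 91.5 and 90.9 in NF (-4.90 ± 0.20, adjusted p = 5.84e-07), Gcnt1 at -5.80 ± 0.50 and the sialyltransferase St3gal6 at -4.03 ± 0.31.

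Phospholipid, glyceride and sphingolipid enzymes had 30 higher and 32 lower of 128 tested out of 165 (median -0.14). Both lipases named here rose. Lpl, lipoprotein lipase, lay at 117, 105 and 223 CPM in CAF and 1.96, 0.725 and 0.246 in NF, and the endothelial lipase Lipg at 52.4, 44.0 and 49.3 against 2.15, 1.92 and 1.66. Neither overlapped between groups, with log2 fold changes of 7.26 ± 0.61 (8.15 without NF replicate 1) and 4.66 ± 0.20. A4galt, which makes the glycolipid Gb3, fell to 0.840 to 2.10 CPM from 26.7, 66.1 and 96.0 (-5.39 ± 0.58), and the hydrolase Abhd2 to 138 to 152 from 811 to 980 (-2.62 ± 0.15).

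The count of lysosomal enzymes and cathepsins called moved with NF replicate 1. With all libraries 5 were higher and 15 lower of 60 tested out of 62 (median -0.34), without NF replicate 1 they were 15 and 16 (median -0.08), and DESeq2 called 8 higher. The mean log2 CPM of the family was 6.48 in NF replicate 1, 5.95 and 5.77 in the other NF libraries and 5.60 to 5.75 in CAF. The protease Ctsl lay at 903, 846 and 997 CPM in CAF and 4026, 3109 and 3463 in NF, separated in every library (-1.95 ± 0.19). Cd68 fell by 4.41 ± 0.29 on the log2 scale, with the same value without NF replicate 1. Ctsk, a collagen-degrading cathepsin, rose to 186 to 258 CPM from 31.8 to 91.7 (1.96 ± 0.37), and Ctsc rose by 2.73 ± 0.33.

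Membrane transport began with amino acids, whose carriers had 11 higher and 7 lower of 36 tested out of 72 (median 0.14). The 7 became 4 when CAF replicate 1 or 3 was left out and with only the 6 libraries. The glutamate carrier Slc1a3 lay at 9.02, 11.3 and 12.3 CPM in CAF and 0.0633, 0.0853 and 0.0615 in NF (7.12 ± 0.62), and the cationic amino acid carrier Slc7a3 rose by 3.50 ± 0.39. Slc7a11, the cystine carrier that feeds glutathione synthesis, fell. It lay at 14.5, 13.3 and 18.1 CPM in CAF and 458, 110 and 49.5 in NF, each NF library above CAF and replicate 1 far above the rest. The log2 fold change was -3.75 ± 0.72 (adjusted p = 0.00265), and -2.37 without NF replicate 1 (adjusted p = 4.23e-04).

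Slc7a11 is known as a gene of the amino acid starvation response, through elements to which the factor ATF4 binds, and its promoter is given to show them. It lies on the minus strand at chr3:50443564-50443863 (GRCm38.p6, RefSeq), with matches to TGATGNAA on either strand in capitals.
Slc7a11: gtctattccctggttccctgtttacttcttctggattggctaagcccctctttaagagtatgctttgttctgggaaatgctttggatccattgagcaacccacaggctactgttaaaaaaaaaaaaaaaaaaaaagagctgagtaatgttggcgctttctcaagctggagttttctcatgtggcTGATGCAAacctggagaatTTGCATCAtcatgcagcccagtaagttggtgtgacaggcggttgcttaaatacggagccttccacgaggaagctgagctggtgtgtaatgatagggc
The window held 2 matches, starting 66 and 47 bases before the transcription start and pointing in opposite directions, with no overlap between them. Such a match occurs in 3.97% of the 32851 windows and is a description of the letters only.

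Sugar and monocarboxylate carriers had 10 higher and 16 lower of 48 tested out of 70 (median -0.17). Slc2a3, a high-affinity glucose carrier known from neurons, lay at 1.46, 1.55 and 2.01 CPM in CAF and 14.2, 56.7 and 33.4 in NF (-4.37 ± 0.48). Slc16a1, a lactate carrier, lay at 61.1, 70.5 and 69.3 CPM against 167, 314 and 451 (-2.21 ± 0.32). In both cases the CAF libraries were alike and NF replicate 1 was the lowest of NF, without overlap. Slc16a13 fell as well (-3.56 ± 0.34), whereas Slc16a4 (6.17 ± 0.62) and the sugar carrier Slc2a6 (3.83 ± 0.35) rose.

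Inorganic ion and metal carriers had 14 higher and 16 lower of 54 tested out of 89 (median -0.12), with 9 higher without CAF replicate 2. The sodium-proton exchanger Slc9a2, known from epithelia, lay at 0.112, 0.155 and 0 CPM in CAF and 101, 388 and 466 in NF. CAF was at the floor, and the log2 fold change was -11.74 ± 1.04 (adjusted p = 3.13e-05), -12.39 without CAF replicate 2, and -11.14 when CAF replicate 3 was left out. The bicarbonate carrier Slc4a4 rose to 19.2 to 29.5 CPM from 0.128 to 0.253 (6.86 ± 0.54), and the phosphate carrier Slc20a2 fell by 2.39 ± 0.27 on the log2 scale. Organic ion, nucleoside, lipid and other carriers had 9 higher and 19 lower of 52 tested out of 115 (median -0.42). Slc22a4, a carrier of the antioxidant ergothioneine, lay at 1.01, 0.673 and 0.525 CPM in CAF and 65.2, 62.3 and 71.8 in NF. Its NF libraries were alike and far above CAF, and the log2 fold change was -6.50 ± 0.24 (adjusted p = 3.85e-07). Slc22a23 fell by 5.51 ± 0.27, and the choline carrier Slc44a2 rose by 2.39 ± 0.30.

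Mitochondrial carriers had 5 higher and 8 lower of 43 tested out of 52 (median -0.22). Slc25a37, which brings iron into mitochondria, lay at 49.1, 44.2 and 45.0 CPM in CAF and 666, 164 and 168 in NF, with a log2 fold change of -2.85 ± 0.51, or -1.84 without NF replicate 1. ABC transporters, pumps that export lipids and drugs, had 7 higher and 10 lower of 35 tested out of 50 (median -0.19). Abcc4, which exports cyclic nucleotides and drugs, fell to 16.4 to 26.8 CPM from 157 to 275 (-3.15 ± 0.28), and the cholesterol exporter Abca1 to 42.6 to 48.2 from 120 to 400 (-2.53 ± 0.42). Abcg2, a drug exporter of stem-like cells, rose to 50.2 to 72.4 CPM from 10.8 to 21.7 (1.79 ± 0.28). Ion-pumping and lipid-flipping ATPases had 9 higher and 13 lower of 47 tested out of 73 (median -0.10), among them Atp8b1, higher by 2.55 ± 0.44.

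Iron and heme genes had 6 higher and 12 lower of 40 tested out of 47 (median -0.20), and the same 12 were lower when NF replicate 1 was left out. Fth1, the ferritin heavy chain that stores iron, lay at 390, 543 and 458 CPM in CAF and 4441, 2361 and 1690 in NF. The lowest NF library was above the highest CAF library, with a log2 fold change of -2.61 ± 0.35 (adjusted p = 3.16e-04). The copper oxidase ceruloplasmin, Cp, which loads iron for export, lay at 6.72, 3.52 and 4.87 CPM in CAF and 218, 178 and 49.5 in NF (-4.88 ± 0.53). The iron sensor Aco1 (0.94 ± 0.13), the heme-making ferrochelatase Fech (0.87 ± 0.14) and the metal reductase Steap2 (1.25 ± 0.29) rose.

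Potassium, sodium and calcium channels had 22 higher and 18 lower of 72 tested out of 162 (median 0.06). Cacna1c, the L-type calcium channel of muscle, lay at 65.4, 70.9 and 62.5 CPM in CAF and 0.127, 0.299 and 0.677 in NF (7.49 ± 0.40, or 8.15 without NF replicate 3), and the T-type channel Cacna1g rose from at most 0.123 CPM to 34.5 to 58.0. Kcnn4, a calcium-activated potassium channel, was the reverse, at 3.59, 3.78 and 1.10 CPM in CAF and 312, 266 and 352 in NF. No library crossed between groups, and the log2 fold change was -6.78 ± 0.43 (adjusted p = 4.71e-06). Chloride, TRP, mechanosensitive and ligand-gated channels had 20 higher and 19 lower of 65 tested out of 154 (median -0.07). Ano1, a calcium-activated chloride channel, lay at 0.112, 0.0518 and 0.286 CPM in CAF and 153, 171 and 228 in NF (-10.16 ± 0.37, or -11.03 without CAF replicate 3). Clca3a1, a calcium-activated chloride channel regulator, had no count in NF and 29.2, 27.1 and 35.9 CPM in CAF, at least 572-fold higher, or 330-fold without NF replicate 2. The muscle acetylcholine receptor subunit Chrna1 fell by 7.63 ± 0.37 on the log2 scale, from 359 to 517 CPM to 1.43 to 3.59.

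Connexins, pannexins and aquaporins had 3 higher and 6 lower of 12 tested out of 34 (median -1.21), with 3 lower without CAF replicate 1 or CAF replicate 2. The water channel Aqp1 lay at 21.2, 22.2 and 18 CPM in CAF and 2002, 998 and 1093 in NF, the CAF libraries alike and all far lower (-6.06 ± 0.33, adjusted p = 2.21e-06). Gja1, the widespread gap junction protein connexin 43, lay at 163, 111 and 161 CPM against 1377, 623 and 1230 (-2.89 ± 0.30).

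**Figure D4:**
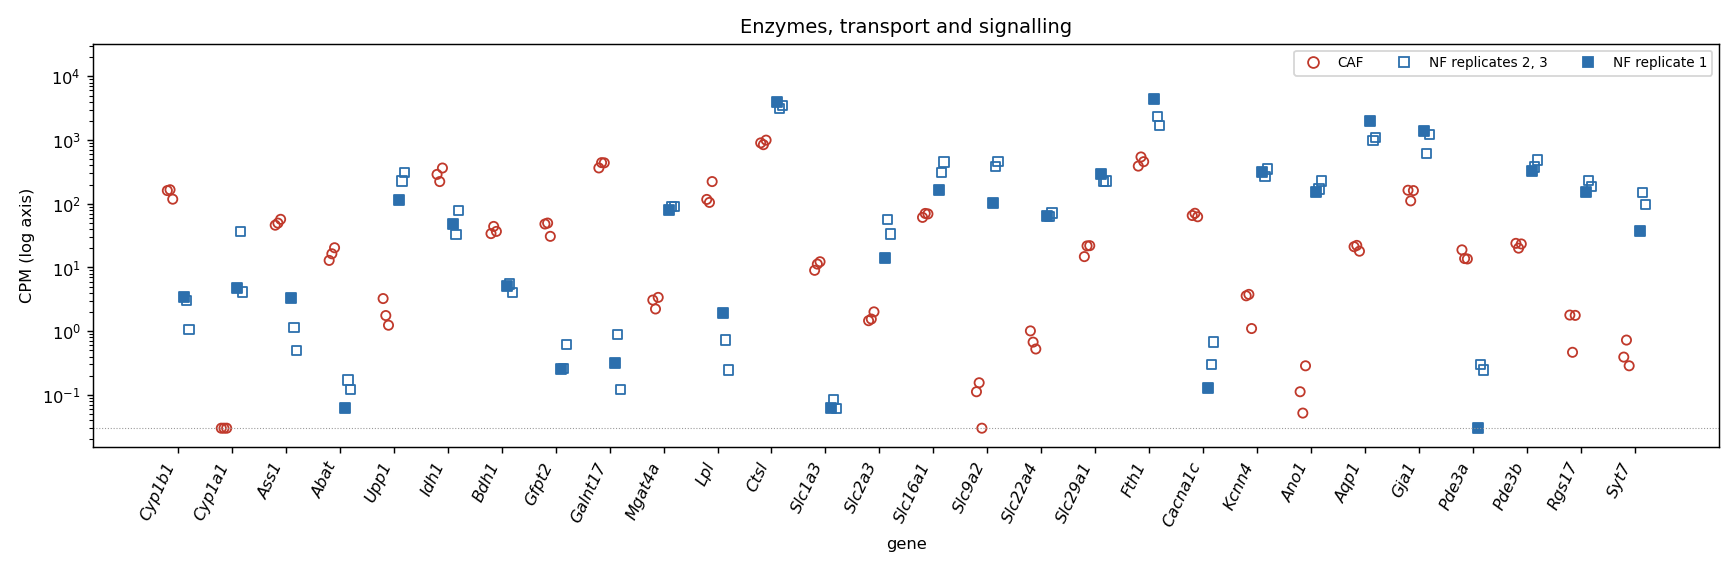
CPM of enzymes, carriers, channels and signalling genes named in the text in each library, on a log axis, with values under 0.03 CPM drawn at 0.03. Circles are CAF, squares NF and the filled square NF replicate 1; Aqp1 lies at 998 to 2002 CPM in NF against 18 to 22.2 in CAF, and Galnt17 at 0.123 to 0.896 against 365 to 442.

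Downstream of the receptors, cyclic nucleotide signalling had 23 higher and 12 lower of 55 tested out of 76 (median 0.37). Akap12, a scaffold of protein kinase A, lay at 892, 791 and 745 CPM in CAF and 27.4, 18.9 and 1.78 in NF (5.66 ± 0.81, or 6.26 without NF replicate 1). The related phosphodiesterases Pde3a and Pde3b moved apart. Pde3a lay at 18.9, 13.8 and 13.6 CPM in CAF and 0, 0.299 and 0.246 in NF, and Pde3b at 23.9, 20.1 and 23.4 against 326, 378 and 486. Log2 fold changes were 6.28 ± 0.66 (6.88 without NF replicate 2) and -4.14 ± 0.19. Rapgef4, a guanine exchange factor that binds cyclic AMP, fell to 0.104 to 0.224 CPM from 8.27 to 23.1 (-6.76 ± 0.51).

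G protein subunits and their RGS regulators had 18 higher and 9 lower of 49 tested out of 68 (median 0.28). Rgs17 lay at 1.79, 0.466 and 1.77 CPM in CAF and 153, 230 and 189 in NF, far apart in every library (-7.15 ± 0.44, adjusted p = 4.01e-06), and Rgs20 fell by 6.51 ± 0.50. The inhibitory subunit Gnai1 (4.48 ± 0.30) and Rgs12 (2.32 ± 0.23) rose. RAB GTPases, synaptotagmins and SNAREs, which move vesicles, had 23 higher and 25 lower of 100 tested out of 126 (median -0.01). Syt7, a calcium sensor of lysosome and vesicle fusion, lay at 0.392, 0.725 and 0.286 CPM in CAF and 37.5, 152 and 98.7 in NF (-7.67 ± 0.70), and Sytl2 rose to at least 31.9 CPM from 0.0615 to 0.253 (8.31 ± 0.57, or 9.03 without NF replicate 1).

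What held without NF replicate 1 can be read family by family. Of the receptor genes called, 99 of 100 higher and 67 of 72 lower kept their call, and of the signalling genes 99 of 100 and 62 of 68. Transport genes kept 111 of 115 higher and 133 of 139 lower calls, metabolic genes 189 of 202 and 146 of 161, and transcription and chromatin factors 146 of 152 and 125 of 143. All genes together kept 95.4% of higher and 89.3% of lower calls.

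The listed genes of largest fold among those that lost their call without that library were Cyp2ab1, Pax5 and Flt3 (adjusted p = 0.0723, 0.111 and 0.0743 without it) and Akr1c14. Each had its highest NF level in replicate 1, and all but Akr1c14 lay at 1.39 CPM or lower in every library. Akr1c14, a hydroxysteroid dehydrogenase, lay at 0.448, 0.0518 and 0.0955 CPM in CAF and 6.78, 1.41 and 0.0615 in NF (log2 fold change -3.78, -1.99 with adjusted p = 0.142 without NF replicate 1, and -5.08 without CAF replicate 1). The calls of these 4 genes were also lost without CAF replicate 2, those of Cyp2ab1, Pax5 and Flt3 without CAF replicate 1, those of Cyp2ab1, Pax5 and Akr1c14 without CAF replicate 3, and those of Pax5 and Flt3 without NF replicate 2.

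Other genes gained a call. Ak5, an adenylate kinase, lay at 17.6, 17.4 and 27.5 CPM in CAF and 20.1, 2.30 and 0.246 in NF, and Ptprb, a receptor phosphatase of blood vessels, at 19.9, 16.6 and 27.6 against 19.7, 3.41 and 0.615. NF replicate 1 sat within the CAF range for both genes and the other NF libraries below it. Their log2 fold changes went from 1.47 and 1.44, which did not pass the test (adjusted p = 0.268 and 0.232), to 3.94 and 3.35 (adjusted p = 0.00118 and 0.00331). Ednrb, an endothelin receptor, gained a call as well (3.14 to 4.59, adjusted p = 0.0563 to 0.0179). For the lysosomal protease Ctss the change was from -3.96 to -4.52 (adjusted p = 0.0588 to 0.00509), with no count in NF replicate 1 and 4.18 and 3.94 CPM in the others. The fibronectin gene Fn1 lay at 6314, 7582 and 8260 CPM in CAF and 6885, 1563 and 726 in NF, and its log2 fold change went from 1.27 to 2.70 (adjusted p = 0.170 to 7.12e-04).

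**Figure D5:**
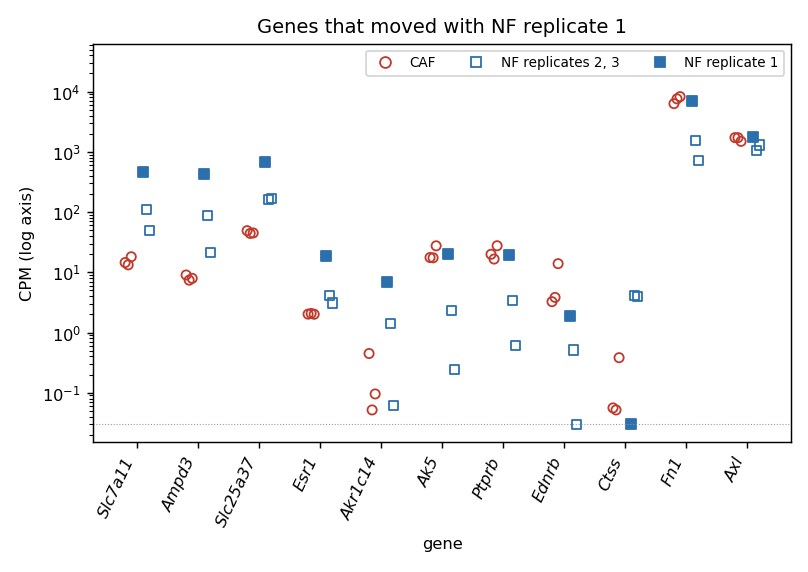
CPM in each library, on a log axis, of genes whose fold or call changed when NF replicate 1 was left out, with values under 0.03 CPM drawn at 0.03. Circles are CAF, squares NF and the filled square NF replicate 1, which lies at 20.1 CPM for Ak5 beside 17.4 to 27.5 in CAF and at 458 CPM for Slc7a11 beside 49.5 and 110 in the other NF libraries.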

How the data were processed

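RNA of cultured mouse fibroblasts was sequenced, with 3 libraries each of CAF, NF and beta-catenin -/- CAF. The authors deposited raw counts per gene on mm10, and the submitters' processing notes name bcl2fastq, TopHat and edgeR. The sources used here do not state versions, annotation or strand setting, so overlapping, antisense and near-identical genes may share reads. The table holds 51912 genes, of which 51633 matched a symbol in the GRCm38 annotation, and 0 of its values differed from the per-library files.

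Counts were fitted in R 4.3.3 with edgeR 4.0.16 (filterByExpr, TMM, quasi-likelihood test, all 9 libraries, CAF against NF), with Benjamini-Hochberg adjustment over 14314 genes and a threshold of 0.05. Standard errors are the log2 fold change divided by the square root of F. Alternatives were DESeq2 1.42.0, other scalings and filters, the 6 libraries alone and each library left out. Genes with no count in a group were set against 3 counts over that group, and a ratio against 1 to 3 counts has a 95% counting interval, covering counting error only. In counts simulated for CAF against NF over 13982 genes, the test called 67 of 97 genes changed by a log2 fold of 2, 23 of 96 changed by 1, and 5 of 13789 unchanged ones. Far fewer genes were changed there than were called in the data, which alters the adjusted p, so these rates need not hold for the real fit.

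The 41 family lists and 10 marker lists, and the comparison itself, were chosen with earlier results of these data known. Named genes are, per list and direction, up to 4 called genes of largest fold with no overlap between groups and at least 5 CPM in the higher group, the most abundant member, marker genes, members against their list's majority, and the 4 of largest fold that lost or gained a call without NF replicate 1. Only some of them, and 40 of the family lists, are described, and some results are not reported here. The library of each sample was taken from its source label, and replicate numbers follow the order of the samples.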

Additional observations from a re-analysis of the deposited data

How the results depend on the processing

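The counts of genes higher and lower in CAF stayed within 1.5 times of 2866 and 2847 under all 12 alternatives, between 2399 and 3409 higher with 2068 to 3701 lower, and 4014 of the 5713 calls held in every one. Without each library in turn the counts were 2475 to 3409 higher and 2117 to 3052 lower. Of 156 genes printed with a fold or test, 144 kept call and direction in every alternative run, and the exceptions stand beside their values, save that Ctss and Ednrb also passed with DESeq2 and without the filter, and Ctss with total counts. Of 80 family counts, 60 stayed within 1.5 times, and the others are given with the settings that moved them. Total counts lowered the family medians by 0.14 to 0.18 on the log2 scale, which turned the sign of 7 small medians (ETS and RUNX factors, amino acid carriers, bHLH factors, P450 and conjugating enzymes, numbered zinc fingers, potassium, sodium and calcium channels, respiratory chain), and the cause of other movements was not tested. Bounds against a group with no count fall with the depth of that group, and leaving out libraries for them was chosen after seeing the data. No paired analysis was possible because the replicate numbers only follow sample order. A level of 0.128 CPM or lower rests on at most 3 counts in any of the 6 libraries.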
